A study of Mus musculus with 6 samples.

Results

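The mitochondrial ribosomal protein genes, named Mrpl for the large and Mrps for the small subunit of the mitochondrial ribosome, were followed in c-kit-positive and c-kit-negative cells sorted from the mouse embryo. Members were chosen by symbol: every gene called Mrpl or Mrps plus a number, with or without a letter, and with a probe set assigned to that gene alone. Where a gene had several such probe sets, the one with the highest mean over the 6 arrays was kept. This gave 77 genes of 19937 measured, 48 of the large and 29 of the small subunit. RefSeq holds 78 genes with such symbols, and the missing gene, Mrpl53, was left out because its probe set is assigned to several genes. The rule itself used no difference between the groups, but it was set with earlier results of these data known.

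Mitochondrial ribosomes translate the few proteins encoded by mitochondrial DNA, all of them parts of the respiratory chain and ATP synthase. Their RNAs come from mitochondrial DNA, but every protein of both subunits is encoded in the nucleus, made in the cytosol and imported. Part of these proteins descend from bacterial ribosomal proteins, and the rest were added in the mitochondrial lineage. Assembly of both subunits is needed for oxidative phosphorylation.

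CD1 mice supplied the embryos, taken at E11.5, and the cells came from their aorta-gonad-mesonephros region, where the first haematopoietic stem cells arise. All 6 samples were CD31+CD45-Ter119- cells, that is, cells with an endothelial surface protein and without the pan-leukocyte and erythroid ones. There were 3 samples of c-kit+ and 3 of c-kit- cells, c-kit being a receptor found on haematopoietic progenitors and germ cells. No genotype or treatment differed between the groups. The labels call the replicates biological but do not say how many embryos each held. The p-values set a difference against the spread between samples, and whether that matches the spread between embryos is not known. Each sample was 1 array made from 5 ng of amplified total RNA, and the small number of arrays limits the precision. Values are the authors' log2 expression values, so a difference of 1 is a doubling. The array medians were 5.42 to 5.52.

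Kit itself, the gene of the sorted receptor, had a log2 level of 9.55 ± 0.03 (SD, n = 3) in the c-kit-positive samples and 8.22 ± 0.04 in the others, a difference of 1.33 ± 0.12 (SE; limma adjusted p = 0.000453). Of the other sorted proteins, Pecam1 (CD31) was at 9.13 ± 0.16 against 10.02 ± 0.02 (limma adjusted p = 0.00597), lower in c-kit-positive samples, and Ptprc (CD45) was at 8.52 ± 0.13 against 8.75 ± 0.60 (limma adjusted p = 0.689). Correlations between arrays over all genes were 0.976 to 0.981 within groups and 0.946 to 0.953 between them. The samples also differed in markers of several cell types. Of 20 germ cell markers 15 were higher in c-kit-positive samples, where their mean level per array was 7.44 to 7.59, against 6.20 to 6.32 in c-kit-negative samples. All 16 endothelial markers were lower, at 5.72 to 5.95 against 8.51 to 8.59, as were 7 of 12 mesenchymal, 3 of 14 macrophage, 3 of 8 erythroid and 2 of 6 platelet markers measured, while 1 erythroid marker was higher. Of 23 cell cycle genes 3 were higher and all 23 had a positive difference, at 9.01 to 9.23 against 8.60 to 8.74. Every result below compares groups that differ in these markers, and their part in the results was not tested. In such bulk samples fewer cells of a type and less RNA per cell cannot be told apart.

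Most mitochondrial ribosomal protein genes had a higher level in c-kit-positive samples, by small amounts, and few passed the test one by one. Of the 77 genes, 70 had a positive difference (c-kit-positive minus c-kit-negative), where 61.1% of all genes did. The median difference was 0.32, or 1.25-fold, with quartiles of 0.16 and 0.53. The median over all genes was 0.07, with quartiles of -0.12 and 0.24. By limma, 5 genes (6.49%) rose at an adjusted p under 0.05, where 2.71% of all genes did, 4.70% were lower and 7.41% were called in either direction. No member fell (limma; also 0 at an unadjusted p under 0.05, and 0 by a linear model without variance moderation). That model called no member higher either, so none of the 5 passed under it. In 31 members (40.3%) all 3 c-kit-positive arrays lay above all 3 c-kit-negative arrays, where 16.2% of all genes did. In no member did all c-kit-negative arrays lie above, where 10.6% of all genes did. The other 46 members had overlapping groups. All members lay in the brighter 50% of genes, and in that set 56.7% had a positive difference, 18.8% had separated groups with c-kit-positive on top, 4.71% were higher by limma and the median was 0.06.

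The large subunit had a median difference of 0.30 (1.23-fold) over its 48 genes, with quartiles of 0.16 and 0.44. Of these, 43 were positive, 12 had an unadjusted p under 0.05 in the higher direction, and 3 passed the test: Mrpl15, Mrpl38 and Mrpl40. The groups were separated in 19 (39.6%). The small subunit had a median of 0.38 (1.30-fold) over its 29 genes, with quartiles of 0.15 and 0.64. Of these, 27 were positive, 13 had an unadjusted p under 0.05 and 2 passed: Mrps36 and Mrps9. The groups were separated in 12 (41.4%). Over all genes 11.4% had an unadjusted p under 0.05 in the higher direction. A difference above 0.5 was found in 8 large and 12 small subunit genes, and above 1 in Mrpl38. The difference between the subunits was not tested.

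**Figure D1:**
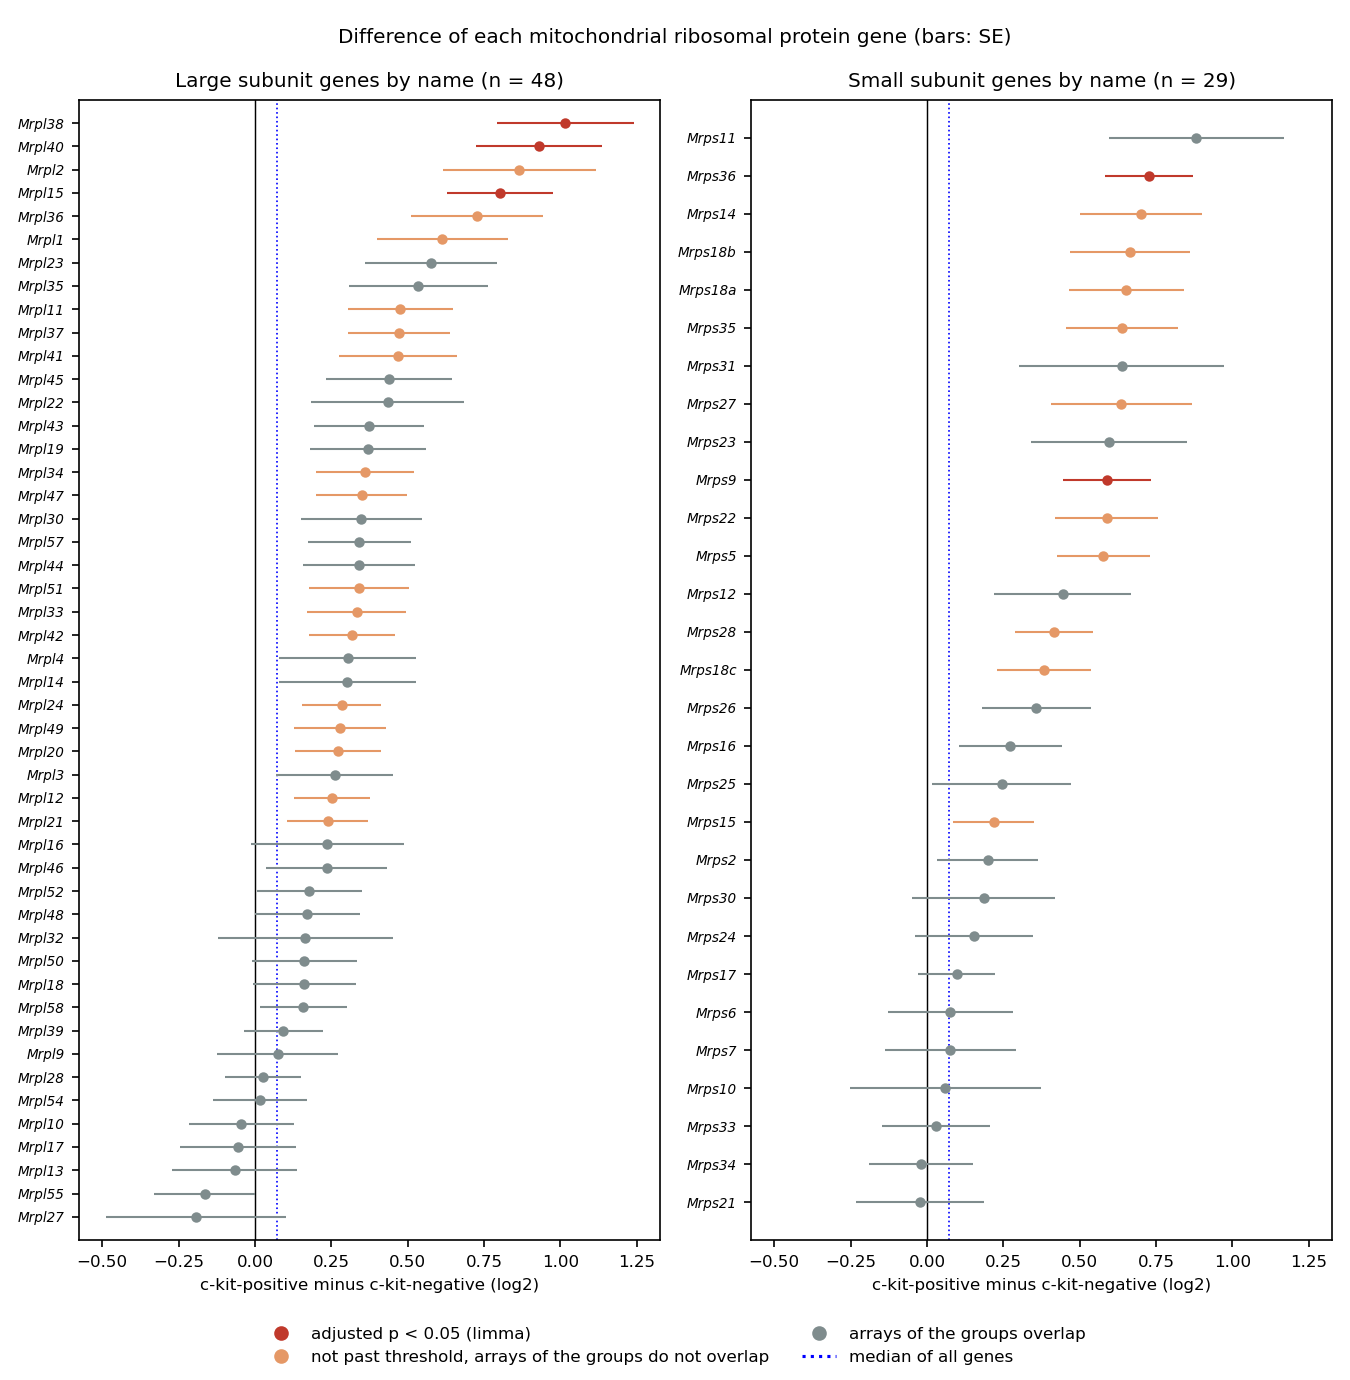
Log2 difference of each mitochondrial ribosomal protein gene, c-kit-positive minus c-kit-negative (3 arrays each), with bars for the SE, for the large (left) and small (right) subunit. Red marks genes past the limma threshold, orange those whose groups do not overlap without passing, grey the rest, and the dotted line the median of all genes (0.07). Of 77 points 70 lie above 0.

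Mrpl38 had the largest difference of the large subunit. It is a mitochondria-specific protein of the central protuberance, a projection of the large subunit. The c-kit-negative arrays read 6.37, 5.97 and 6.69 (log2, replicates 1, 2 and 3) and the c-kit-positive arrays 7.03, 7.40 and 7.64, an order kept for every gene below. The groups did not overlap, and the lowest c-kit-positive array stood above the highest c-kit-negative one by less than the range within either group. The difference was 1.02 ± 0.22 (SE; limma adjusted p = 0.0300), or 2.02-fold. Mrpl40, another mitochondria-specific protein of the central protuberance, had levels of 7.60, 7.17 and 7.90 against 8.46, 8.29 and 8.71, again without overlap. It rose by 0.93 ± 0.21 (limma adjusted p = 0.0313), or 1.91-fold. Mrpl15 is the counterpart of bacterial ribosomal protein L15. Its levels were 7.67, 7.49 and 8.03 against 8.45, 8.45 and 8.69. All c-kit-positive arrays lay above the others, and Mrpl15 rose by 0.80 ± 0.17 (limma adjusted p = 0.0280), or 1.74-fold.

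Of the small subunit, Mrps36 had the smallest adjusted p. Although named as a ribosomal protein, it is now known as a subunit of the oxoglutarate dehydrogenase complex of the citric acid cycle. Its levels were 7.30, 7.64 and 7.31 in c-kit-negative and 8.16, 8.09 and 8.18 in c-kit-positive samples. The c-kit-positive arrays lay close together and well above the rest, and it rose by 0.73 ± 0.14 (limma adjusted p = 0.0200), or 1.66-fold. Mrps9, the counterpart of bacterial protein S9 in the head of the small subunit, had levels of 7.97, 7.91 and 8.01 against 8.35, 8.73 and 8.58. Here the c-kit-negative arrays were the tight group, and Mrps9 rose by 0.59 ± 0.14 (limma adjusted p = 0.0458), or 1.51-fold.

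None of the 5 passed limma in every fit that left out 1 array. Mrpl15 and Mrpl40 passed only without c-kit-negative replicate 3, with adjusted p-values over the 6 fits of 0.0201 to 0.0929 and 0.0270 to 0.0974. Mrpl38 passed without c-kit-negative replicate 3 or c-kit-positive replicate 1 (0.0296 to 0.0921), Mrps36 without c-kit-negative replicate 2 or c-kit-positive replicate 2 (0.0195 to 0.0738), and Mrps9 only without c-kit-positive replicate 1 (0.0432 to 0.129).

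**Figure D2:**
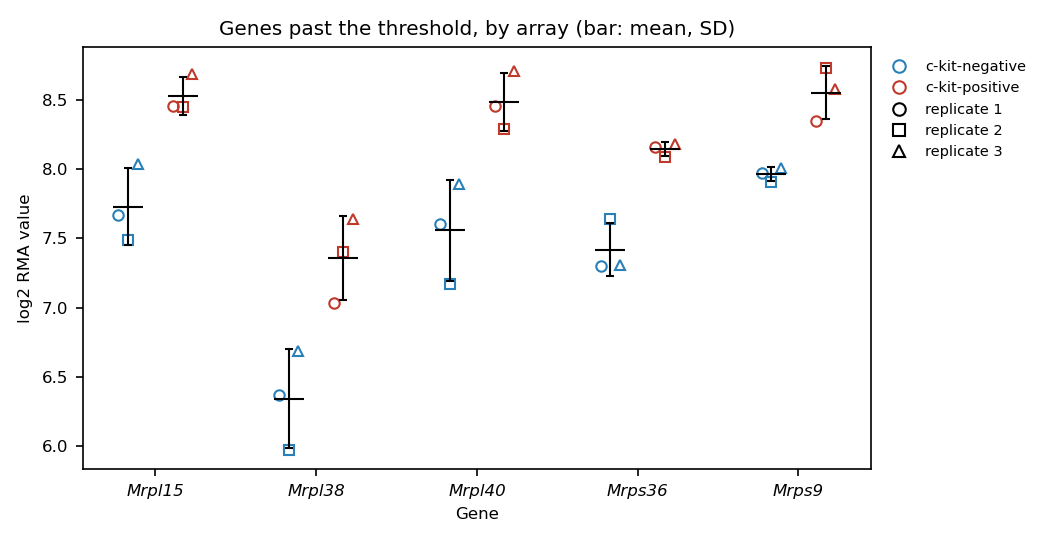
Log2 level per array of the 5 genes that passed limma, with c-kit-negative arrays in blue, c-kit-positive arrays in red, a marker shape per replicate number, and the mean ± SD of each group of 3 in black. In each gene all 3 c-kit-positive points lie above all 3 c-kit-negative points.

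The DNA just before the start of 3 of these genes is shown because they are the ones that passed and have an entry in the RefSeq promoter table (build GRCm38.p6). Mrpl15 and Mrpl38 were not in that table. Mrps9 has its start on the plus strand of chromosome 1, and the stretch is chr1:42850983-42851232. Mrps36 lies on the minus strand of chromosome 13, with chr13:100744660-100744909. Mrpl40 lies on the minus strand of chromosome 16, and chr16:18876638-18876749 is the whole gap between its start and that of Hira, a histone chaperone gene read in the other direction. The sequences run 5′ to 3′ toward the gene and hold no capitals, because none of the NRF1, ETS, YY1 and E-box motifs searched for below was found there.
Mrps9: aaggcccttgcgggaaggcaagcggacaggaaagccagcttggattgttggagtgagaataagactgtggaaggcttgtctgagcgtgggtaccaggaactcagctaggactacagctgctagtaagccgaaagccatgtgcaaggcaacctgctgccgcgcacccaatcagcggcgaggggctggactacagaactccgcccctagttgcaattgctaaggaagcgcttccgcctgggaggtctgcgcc
Mrps36: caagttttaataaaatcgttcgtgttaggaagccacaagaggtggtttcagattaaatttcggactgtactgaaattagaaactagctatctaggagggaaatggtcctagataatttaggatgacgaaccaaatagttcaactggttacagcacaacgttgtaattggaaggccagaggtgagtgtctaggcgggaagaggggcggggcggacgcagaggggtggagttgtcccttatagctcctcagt
Mrpl40: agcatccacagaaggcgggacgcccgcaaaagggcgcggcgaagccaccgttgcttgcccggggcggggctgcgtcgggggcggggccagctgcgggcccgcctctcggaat

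Below the threshold, 16 more large subunit genes had separated groups, with differences from 0.24 (Mrpl21) to 0.87 (Mrpl2). They were Mrpl1, Mrpl2, Mrpl11, Mrpl12, Mrpl20, Mrpl21, Mrpl24, Mrpl33, Mrpl34, Mrpl36, Mrpl37, Mrpl41, Mrpl42, Mrpl47, Mrpl49 and Mrpl51. Mrpl2, the counterpart of bacterial L2 near the catalytic centre, had levels of 7.50, 7.63 and 7.63 against 9.05, 7.97 and 8.34, so that its spread lay mostly within the c-kit-positive samples. Mrpl12, a protein of the stalk that also binds the mitochondrial RNA polymerase, was tight in both groups, at 7.69, 7.79 and 7.77 against 7.96, 8.02 and 8.02. Its difference was 0.25 ± 0.12 (limma adjusted p = 0.293), with a 95% interval of -0.03 to 0.53. Of the small subunit, 10 more genes were separated without passing: Mrps5, Mrps14, Mrps15, Mrps18a, Mrps18b, Mrps18c, Mrps22, Mrps27, Mrps28 and Mrps35, with differences from 0.22 (Mrps15) to 0.70 (Mrps14). Adjusted p-values between 0.05 and 0.1 were found for 7 small and 2 large subunit genes by limma.

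The groups overlapped with a positive difference in 24 large and 15 small subunit genes. Mrpl45, which binds the inner membrane beside the exit of the ribosome's tunnel, had levels of 6.30, 6.33 and 6.57 against 6.84, 6.44 and 7.24. The difference was 0.44 ± 0.21 (limma adjusted p = 0.276), with c-kit-positive replicate 2 inside the c-kit-negative range. Mrps12, the counterpart of the bacterial decoding-centre protein S12, was placed likewise, at 8.18, 7.84 and 8.35 against 8.73, 8.12 and 8.86, a difference of 0.44 ± 0.22 (limma adjusted p = 0.310). Mrps16, mutated in a human combined respiratory chain deficiency, had 7.63, 7.38 and 7.96 against 7.92, 7.88 and 7.99, a difference of 0.27 ± 0.17 (limma adjusted p = 0.412). Only c-kit-negative replicate 3 reached the c-kit-positive values. Mrps11 had the largest difference of the small subunit, 0.88 ± 0.29 (limma adjusted p = 0.117), from levels of 6.64, 6.41 and 6.97 against 7.88, 7.90 and 6.88. Its c-kit-positive replicate 3 lay within the c-kit-negative range, and without that array the difference was 1.22 (limma adjusted p = 0.0145).

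A negative difference was found in 7 genes, Mrpl55, Mrpl27, Mrpl13, Mrpl17, Mrpl10, Mrps34 and Mrps21, and each had overlapping groups. The lowest was that of Mrpl27, -0.19 ± 0.29 (limma adjusted p = 0.768, 95% interval -0.87 to 0.48), with levels of 7.83, 8.23 and 8.13 against 7.14, 8.14 and 8.34. That sign came from c-kit-positive replicate 1, without which the difference was 0.17. Mrps21, the lowest of the small subunit at -0.02 ± 0.21, had levels of 9.69, 9.33 and 10.17 against 9.69, 9.64 and 9.79, and its sign turned when arrays were centred on their medians. Over the fits that left out 1 array each, 59 members stayed positive in all 6, Mrpl55 stayed negative in all 6 and 17 changed sign in at least 1.

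Some names do not match the place of the protein. Mrps30 and Mrps18a sit in the large subunit, and with Mrps36 they are the exceptions to a reading of the subunits by symbol. Mrps30 had levels of 7.54, 7.57 and 6.91 against 7.30, 7.36 and 7.92, with overlapping groups and a difference of 0.19 ± 0.23 (limma adjusted p = 0.713). With Mrps30 and Mrps18a moved and Mrps36 left out, the large subunit held 50 genes with a median of 0.30 and 3 that passed, and the small subunit 26 genes with a median of 0.37 and 1 that passed. The 3 Mrps18 genes are paralogs of bacterial S18, whose proteins occupy different sites. Mrps18a had levels of 8.50, 7.91 and 8.52 against 8.91, 8.90 and 9.08, a difference of 0.65 ± 0.19 (limma adjusted p = 0.0802). Mrps18b had 7.63, 7.80 and 7.55 against 8.40, 7.93 and 8.64, a difference of 0.66 ± 0.20 (limma adjusted p = 0.0873). Mrps18c had 9.56, 9.37 and 9.67 against 9.98, 10.07 and 9.72, a difference of 0.38 ± 0.15 (limma adjusted p = 0.196). In each of the 3 paralogs the groups were separated with c-kit-positive on top, and none passed the test.

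Split by a list of genes with a bacterial counterpart, the 28 large subunit genes on it had a median difference of 0.29 and the 20 others 0.33. The list held no Mrpl gene beyond Mrpl36 and left out Mrpl47 and Mrpl55 (differences of 0.35 and -0.16). The 20 may therefore hold genes with a counterpart. In the small subunit the 17 on the list had a median of 0.27 and the 12 others 0.59. The 12 hold Mrps36 and Mrps30, which are no small subunit proteins, and Mrps18a, which the list used did not count although it belongs to the S18 family. These medians were not tested against each other.

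Where a gene had a further probe set, 8 genes in all, it usually gave the same sign. The differences of the kept and the further probe set were 0.58 and 0.87 for Mrpl23, -0.19 and -0.16 for Mrpl27, 0.47 and 0.51 for Mrpl41, 0.35 and 0.59 for Mrpl47, and 0.34 and 0.49 for Mrpl51. They were 0.58 and 0.70 for Mrps5, 0.73 and 0.39 for Mrps36, and 0.03 and -0.29 for Mrps33, which alone differed in sign. Which of a pair lies at the gene and which at a copy of it is not given in the sources used here, so that for these 8 genes the measured transcript is uncertain.

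The mean level over a subunit was higher in every c-kit-positive array than in any c-kit-negative array. For the large subunit it was 7.84, 7.76 and 7.97 in c-kit-negative and 8.12, 8.09 and 8.30 in c-kit-positive samples. For the small subunit it was 7.74, 7.73 and 7.90 against 8.16, 8.15 and 8.21. Over the brighter 50% of genes the array means were 7.33 to 7.39 in c-kit-negative and 7.33 to 7.36 in c-kit-positive samples. The arrays also differed within groups: c-kit-positive replicate 3 was the highest array for 39 of the 77 genes and c-kit-negative replicate 2 the lowest for 37. Within its own group, c-kit-negative replicate 3 was highest for 44 and c-kit-positive replicate 3 for 43.

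**Figure D3:**
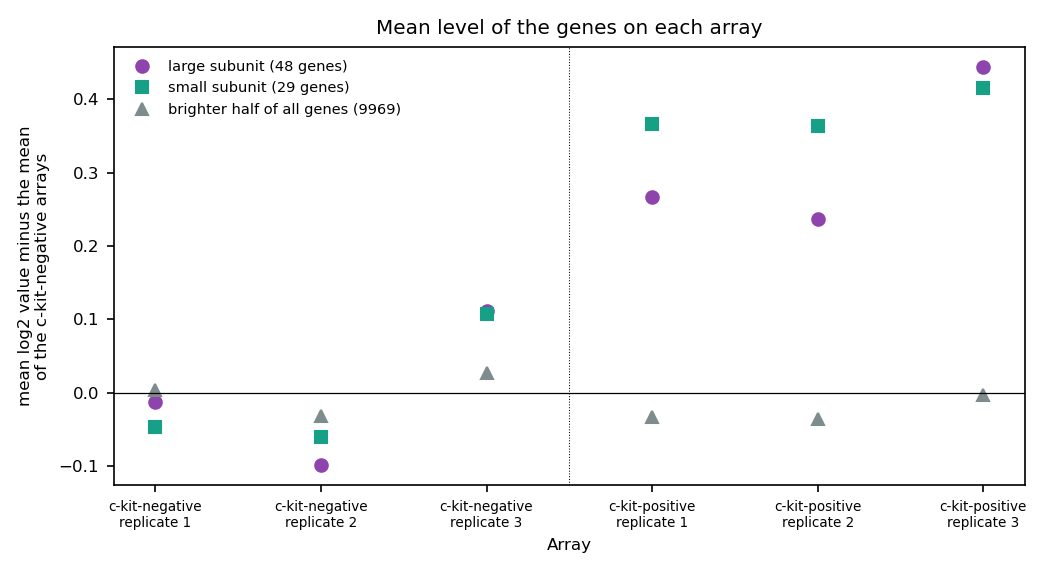
Mean log2 level on each of the 6 arrays, less the mean of the 3 c-kit-negative arrays, for the large subunit genes (circles), the small subunit genes (squares) and the brighter 50% of all genes (triangles). Both subunits have every c-kit-positive point above every c-kit-negative point, and the triangles stay close to 0.

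Other genes of mitochondrial translation were taken from lists set by function. The 4 measured ribosomal proteins with other names, Dap3, Ptcd3, Gadd45gip1 and Chchd1, were all positive, with a median of 0.28. None passed limma, 2 had an unadjusted p under 0.05 and none passed without variance moderation, and Ptcd3, a small subunit protein, had the smallest p, with a difference of 0.58 ± 0.17 (limma adjusted p = 0.0867). Of 27 factors that assemble the subunits or modify their RNA, 21 (77.8%) were positive, with a median of 0.25, and 1 (3.70%) passed. It was Mettl15, a methyltransferase of the small subunit RNA, which rose by 1.05 ± 0.24 (limma adjusted p = 0.0371) from 4.34, 4.53 and 4.34 to 4.97, 5.38 and 6.0. Its values were dim, below the array medians over all genes (5.72 to 5.73), on every array but c-kit-positive replicate 3, whose median was 5.66. Of 16 translation factors and mRNA-binding proteins, 13 (81.25%) were positive, with a median of 0.12, and 1 (6.25%) passed. This was Lrpprc, which stabilises mitochondrial mRNAs and rose by 0.62 ± 0.13 (limma adjusted p = 0.0240), from 8.81, 8.68 and 8.75 to 9.26, 9.42 and 9.42. Of 19 mitochondrial tRNA synthetases and related enzymes 18 (94.7%) were positive, with a median of 0.26, and 1 (5.26%) passed. This was Cars2, the cysteinyl-tRNA synthetase, which rose by 0.82 ± 0.19 (limma adjusted p = 0.0350), from 6.26, 6.49 and 6.22 to 7.50, 7.02 and 6.89. With 1 array left out, Mettl15 and Lrpprc passed limma only without c-kit-positive replicate 1 (adjusted p over the 6 fits 0.0171 to 0.111 and 0.0427 to 0.0787) and Cars2 only without c-kit-positive replicate 3 (0.0392 to 0.110).

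Of 12 genes for transcription and upkeep of mitochondrial DNA, 11 (91.7%) were positive, and the median over the list was 0.43. None of the 11 passed limma or the model without variance moderation, while 5 had an unadjusted p under 0.05. The exception in sign was Mterf2, of the mitochondrial transcription termination factor family, which fell by 0.70 ± 0.16 (limma adjusted p = 0.0319), from 4.96, 5.06 and 4.77 to 4.41, 4.26 and 4.02. It passed limma only without c-kit-positive replicate 1 (adjusted p over the 6 fits 0.0440 to 0.104). Its values were dim, below the array median over all genes (5.66 to 5.73) on all 6 arrays. Of 13 nuclear regulators of mitochondrial genes 9 (69.2%) were positive, near the 61.1% of all genes, with a median of 0.20. None passed limma, 4 had an unadjusted p under 0.05 and 1 passed without variance moderation. The smallest p was that of Pprc1, a relative of the coactivator PGC-1, at 0.49 ± 0.17 (limma adjusted p = 0.139).

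Nuclear genes of the respiratory chain and ATP synthase, and those of the cytosolic ribosome, gave medians below those of both subunits. No gene of mitochondrial DNA, and so no product of the mitochondrial ribosome, was on these lists. Of 68 nuclear genes of the respiratory chain and ATP synthase 60 (88.2%) were positive, with a median of 0.17. The share was 90.9% in the members and 61.1% over all genes. In 20 (29.4%) the groups were separated with c-kit-positive on top, where 40.3% of the members and 16.2% of all genes were. Only 1 (1.47%) was higher by limma, where 2.71% of all genes and 4.71% of the brighter set described above were. It was Ndufa7, of complex I, which rose by 1.09 ± 0.18 (limma adjusted p = 0.00876), from 7.21, 7.81 and 7.73 to 8.60, 8.76 and 8.66. It passed limma in all 6 fits that left out 1 array (adjusted p 0.0144 to 0.0342). Of 54 measured cytosolic ribosomal proteins 46 (85.2%) were positive, with a median of 0.09, and 16 (29.6%) were separated. None passed limma or the model without variance moderation, 4 had an unadjusted p under 0.05, and Rpl7a had the smallest p, at 0.42 ± 0.13 (limma adjusted p = 0.109). The 23 cell cycle genes, all positive, did not lie lower, with a median of 0.33 beside 0.32 for the members. In 12 (52.2%) of these the groups were separated with c-kit-positive on top, and 3 (13.0%) passed limma, where 6.49% of the members did. Differences between the lists were not tested. The lists also differed in level. Cytosolic ribosomal protein genes had array means of 11.28 to 11.45, where the highest value of any probe set was 13.71. The array means of the members were 7.75 to 8.27. Whether level affected the size of the differences was not tested.

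**Figure D4:**
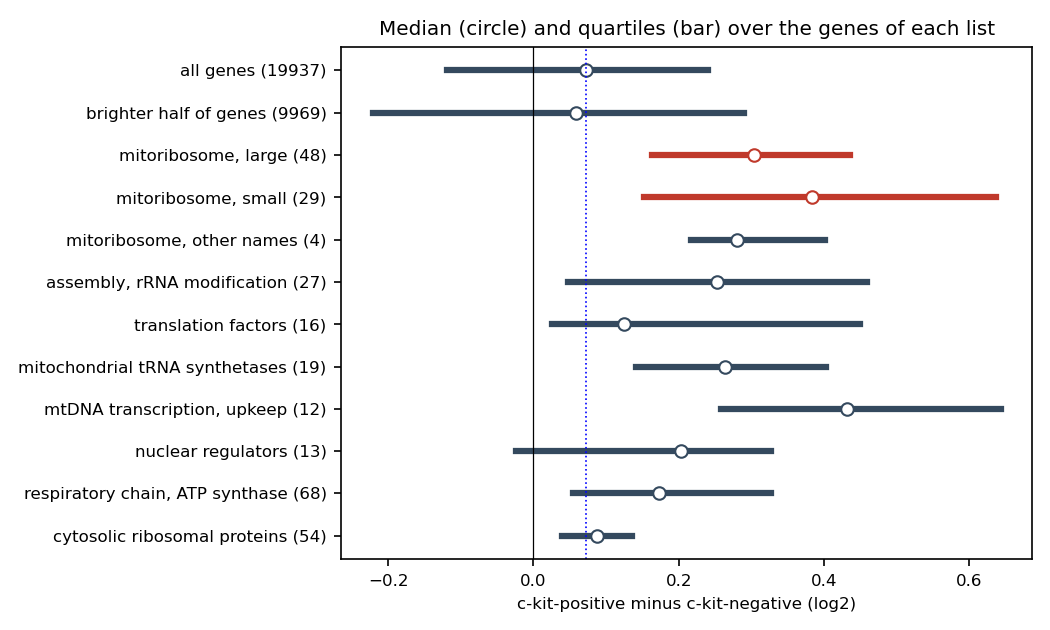
Median (circle) and quartiles (bar) of the log2 difference, c-kit-positive minus c-kit-negative, over the genes of each list, with the number of genes in brackets and the median of all genes as a dotted line. The medians are 0.30 and 0.38 for the large and the small subunit, 0.17 for the respiratory chain and ATP synthase, 0.09 for cytosolic ribosomal proteins and 0.07 for all genes.

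Some sequence features differed in frequency between the start regions of the members and all promoters, and the choice by symbol did not use them. The RefSeq table held 74 promoters for 68 of the 77 genes, and the 250 bases before each start were searched on both strands. The median GC content of the member promoters was 58.4% against 52.4% over all 32851 promoters, with a median of 17 CpG dinucleotides against 6. GC and CpG were not computed for the promoters of measured genes alone. The ETS motif, bound by GABP, a regulator of nuclear genes for mitochondria, was searched as CCGGAAG and found in 17 member promoters (23.0%) and in 6.91% of all. The motif of NRF1, another such regulator, searched as GCGC and TGCGC parted by any base, was found in 10 (13.5%) against 3.74%. The YY1 motif AAGATGGC was found in 4 (5.41%) against 1.56%, and the E-box CACGTG in 7 (9.46%) against 6.02%, 3 of the 7 being overlapping promoters of Mrpl2. Of other motifs, the short ETS form CCGGAA, which contains every CCGGAAG match, was found in 36.5% against 12%, CCAAT in 36.5% against 33.8%, GGGCGG in 50% against 32.7%, and TATAAA in 6.76% against 12.4%. No match to the ETS, NRF1, YY1 or E-box motif overlapped a match to another of these 4. Counted per gene against the 15613 measured genes with a promoter in the table, ETS stood at 25% against 10.7%, NRF1 at 14.7% against 6.40%, YY1 at 5.88% against 1.85% and CCGGAA at 39.7% against 17.9%. On that count the E-box (7.35% against 8.11%), GGGCGG (48.5% against 49.3%) and CCAAT (35.3% against 38.8%) were less frequent in members, the opposite direction to the count per promoter, and TATAAA stood at 7.35% against 12.5%. The shares in members and in all promoters were not tested or matched for GC content.

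Members with and without a motif were set side by side by their median difference, with no test. Those with the ETS motif had a median difference of 0.34 and those without it 0.30, and members with the NRF1 motif had 0.21 and those without it 0.33. The 4 genes with the YY1 motif had 0.59 against 0.29, and the 5 with the E-box 0.47 against 0.28. For the regulators' motifs, 3 promoters are shown with the match in capitals, chosen among genes already described. Mrpl12 (plus strand, chr11:120484387-120484636) holds the NRF1 motif 81 bases before its start, Mrpl45 (plus strand, chr11:97315466-97315715) holds it at 120 and 38 bases, and Mrps18a (plus strand, chr17:46110754-46111003) holds the ETS motif at 26 bases.
Mrpl12: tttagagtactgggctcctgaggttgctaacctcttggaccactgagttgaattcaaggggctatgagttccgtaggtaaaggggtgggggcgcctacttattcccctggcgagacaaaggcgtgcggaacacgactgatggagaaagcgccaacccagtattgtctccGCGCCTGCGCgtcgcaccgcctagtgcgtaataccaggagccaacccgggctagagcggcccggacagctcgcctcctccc
Mrpl45: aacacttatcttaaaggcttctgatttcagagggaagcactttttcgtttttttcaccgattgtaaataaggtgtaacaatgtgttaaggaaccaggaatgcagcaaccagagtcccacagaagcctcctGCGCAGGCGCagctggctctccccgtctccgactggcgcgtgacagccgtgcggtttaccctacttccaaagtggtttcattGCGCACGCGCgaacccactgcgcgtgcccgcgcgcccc
Mrps18a: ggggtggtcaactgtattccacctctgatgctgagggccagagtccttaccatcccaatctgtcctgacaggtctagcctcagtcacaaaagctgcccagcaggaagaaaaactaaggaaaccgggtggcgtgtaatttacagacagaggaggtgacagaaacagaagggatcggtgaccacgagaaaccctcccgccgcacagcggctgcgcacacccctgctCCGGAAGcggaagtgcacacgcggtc

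Many members had a neighbour that starts close by and is read the other way. Such a start within 1000 bases was found for 26 of the 68 members (38.2%), against 12.3% of 27025 genes in the table and 14.4% of the 15613 measured ones, with a median distance of 129.5 bases. Mrpl46 of the large and Mrps11 of the small subunit are each other's neighbour, 42 bases apart, and had differences of 0.23 and 0.88. The whole gap between them, on chromosome 7 and shown toward Mrps11 (plus strand, chr7:78783090-78783130), is printed because both genes start from it.
Mrps11 and Mrpl46: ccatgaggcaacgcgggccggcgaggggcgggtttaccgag

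Of the 24 neighbours measured, none passed limma, while 7 had an unadjusted p under 0.05 in the higher and 1 in the lower direction. Over all genes 11.4% had such a p in the higher direction. Leaving out Mrpl46 and Mrps11, 22 neighbours remained, of which 18 were positive and 5 (22.7%) had separated groups with c-kit-positive on top, with a median of 0.14. Over all genes 61.1% were positive and 16.2% separated in this way, with a median of 0.07. In the brighter set of genes described above these shares were 56.7% and 18.8%, the latter near that of the neighbours. Whether the neighbours differed from other genes was not tested. The members beside these neighbours had a median of 0.35. Hira, 113 bases from Mrpl40, had a difference of -0.10 beside 0.93 for Mrpl40. Zfp189, a zinc finger gene 93 bases from Mrpl50, had -0.60 beside 0.16. Ptcd2, which acts on mitochondrial RNA and starts 108 bases from Mrps27, had 0.44 beside 0.64. Sars2, the mitochondrial seryl-tRNA synthetase 147 bases from Mrps12, had 0.39 beside 0.44. Neighbours were thus found both with and without a difference like that of the member, and the pairs named here were chosen after their values were seen.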

How the data were processed

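Sorted-cell RNA of 6 samples was measured on 1 array each. The values are log2 expression values deposited by the authors, made with RMA per the submitters' processing notes; its version is not given in the sources used here. RMA subtracts background, equalises the arrays and summarises probes, and amplification from 5 ng of RNA can distort ratios.

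Of 34760 probe sets, 21640 had 1 gene symbol in the platform annotation, 1321 had several and 11799 were not listed; only those with 1 symbol were used. For each of the 19937 genes the probe set with the highest mean was fitted with limma 3.58.1 in R 4.3.3 (lmFit, eBayes, two-sided, Benjamini-Hochberg over all genes, adjusted p under 0.05). The procedure was also run on simulated data with independent noise in each gene and known shifts, which does not measure its error rate on these arrays. Genes named were those past the threshold, the extremes of each subunit and genes set for their roles; list genes were those past the threshold or of smallest p. Members and lists were chosen with earlier results of these data known. Alternatives covered normalization, dim-gene filters, probe set choice, variance model, threshold, replicate block and each array left out. The labels do not say whether replicate numbers pair samples. Over all genes, deviations from the group mean correlated at 0.00071, 0.024 and 0.059 between same-numbered samples, which cannot exclude pairing. In the members, replicate 3 was most often the highest of its group (44 c-kit-negative and 43 c-kit-positive) and replicate 2 the lowest (38 and 36). Promoter sequences are from RefSeq, GRCm38.p6. All 77 members matched a RefSeq gene by Entrez identifier.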

Additional observations from a re-analysis of the deposited data

How the results depend on the processing

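The median differences of both subunits stayed positive under every alternative run, and the median over all members was 0.24 to 0.39 when 1 array was left out. Counts of genes past limma's threshold moved more. Over the fits without 1 array, 0 to 4 large and 0 to 2 small subunit genes were higher: none of either without c-kit-negative replicate 1, 0 and 2 without c-kit-negative replicate 2, 4 and 0 without c-kit-negative replicate 3, 1 and 1 without c-kit-positive replicate 1, 1 and 2 without c-kit-positive replicate 2, and 0 and 2 without c-kit-positive replicate 3. No large or small subunit gene was higher by a linear model without variance moderation, at an adjusted p under 0.01, or with all probe sets in the fit, each giving 0 and 0. At an adjusted p under 0.1 there were 5 large and 9 small subunit genes. The small subunit count was 1 with the mean of a gene's probe sets, with trended robust moderation, or with subunits set by structure. With the replicate number as a block, 6 members were higher, 4 of them among the 5, and Mrps9 had a limma adjusted p of 0.0835. Whether the numbers pair the samples is not known. Of the members whose values are described one by one, the signs that reversed were those of Mrps21 (0.00029 with median centring, 0.20 without c-kit-negative replicate 3, 0.012 without c-kit-positive replicate 2, range over the left-out arrays -0.22 to 0.20), Mrps30 (-0.028 without c-kit-negative replicate 3, -0.0098 without c-kit-positive replicate 3, range -0.028 to 0.30) and Mrpl27 (0.17 without c-kit-positive replicate 1, range -0.42 to 0.17). Median centring moved the all-gene median from 0.07 to 0.10 and made 72 members positive. Fits without an array hold fewer samples, and the cause of the other shifts was not tested.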
